A study of Mus musculus with 12 samples.

Results

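Neurexins and neuroligins are adhesion proteins that bind each other across the synaptic cleft. Their transcripts Nrxn2, Nrxn3, Nlgn1, Nlgn2 and Nlgn3 were examined in total RNA of whole brains of newborn female mice on Affymetrix Mouse Exon 1.0 ST arrays, which hold short oligonucleotide probes grouped into probesets, up to 4 probes for most exons. The members are the 82 main probesets whose gene symbol in the table is one of these 5 names, out of 221417 main probesets with 17550 symbols. The study compared 6 wildtype brains (KIS +/+) with 6 brains of mice without the protein kinase KIS (KIS -/-, called KIS-ko), 1 pair of littermates from each of litters 1 to 6, and asked how loss of KIS affects gene expression at birth. The knockout carried by the KIS-ko animals had been backcrossed to C57BL6/N, the tissue is the whole organ reduced to powder, and no treatment was applied to either genotype. Fewer cells of a type and less RNA per cell cannot be told apart in such samples.

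Neurexins sit mostly on the axon terminal and neuroligins on the receiving neuron. A neurexin gene makes a long alpha form from an upstream promoter and a shorter beta form from a promoter inside the gene, and exons at several sites are included or skipped. Nlgn1 protein is found mainly at excitatory synapses, Nlgn2 protein mainly at inhibitory synapses and Nlgn3 protein at both, and these genes also carry cassettes that alter the binding of neurexins. KIS, the product of Uhmk1, phosphorylates the splicing factor SF1, so that exon use in such genes is of interest here.

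In short, all 5 genes had most of their probesets above background in both genotypes, and no gene value, single probeset or splicing index passed the test between genotypes. The litter means covered a range of 0.30 in Nrxn3, the widest of the 5 genes, and of 0.10 to 0.22 in the others.

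For Nrxn3, the RefSeq promoters used here (GRCm38.p6, + strand) list 3 transcription starts, of which the second lies 158886 bases and the third 1017979 bases downstream of the first. The RefSeq gene is 1612235 bases long and ends 522452 bases after the third start. The first listed start thus lies inside the gene, and whether long transcripts begin there was not tested. The 250 bases before the first and before the third, the outermost of the listed starts, are shown. A change of the long or of the short transcripts alone could leave the 5′ and the 3′ probesets of Nrxn3 with unequal differences. Long transcripts also hold the 3′ exons, so the size of this depends on the share of each form, which was not measured. Capitals mark CpG dinucleotides. The window before the first start is at chr12:88794254-88794503 and the window before the third at chr12:89812233-89812482.
Nrxn3 before the first start: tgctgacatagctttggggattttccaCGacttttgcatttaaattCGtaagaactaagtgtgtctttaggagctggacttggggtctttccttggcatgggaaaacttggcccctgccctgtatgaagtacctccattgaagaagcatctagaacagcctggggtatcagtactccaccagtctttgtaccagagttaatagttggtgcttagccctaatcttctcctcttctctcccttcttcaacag
Nrxn3 before the third start: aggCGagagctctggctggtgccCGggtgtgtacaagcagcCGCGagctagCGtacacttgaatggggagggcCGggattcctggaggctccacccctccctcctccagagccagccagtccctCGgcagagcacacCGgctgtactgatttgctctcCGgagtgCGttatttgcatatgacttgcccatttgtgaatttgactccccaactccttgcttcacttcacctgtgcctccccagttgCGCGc
The first window holds 2 CpG dinucleotides at a GC content of 45.6% and the third 12 at 60.0%, beside a median of 6 and 52.4% over the same 250 bases of all 32841 listed promoters. RefSeq promoters were matched for 3 of the 5 genes, with 6 starts in all, and the other windows held 5 CpG (Nrxn3 second start), 9 and 5 (Nlgn1 first and second start) and 18 (Nlgn2). The letters TATAAA, searched on both strands, were in none of the 6 windows and in 12.4% of all promoters. The letters GGGCGG, searched in the same way and with no overlap with the former, occurred 3 times in the Nlgn2 window, in no other of the 6, and in 32.7% of all promoters.

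The coverage of the genes differed. The probesets of Nrxn2 (chromosome 19, + strand, 6517190 to 6532148 in the positions of the table, whose build is not named in the sources used here) span 14959 bases, or 13.1% of the length of the RefSeq gene, and lie 3741 bases before those of the next gene, Slc22a12, but 101990 bases after those of the preceding gene, Rasgrp2. The values of Nrxn2 therefore describe its 3′ part, which long and short forms share. Those of Nrxn3 (chromosome 12, + strand, 90033903 to 91570789) span 95.3% of the RefSeq length and those of Nlgn1 (chromosome 3, - strand, 25330836 to 26230796) 98.8%. Those of Nlgn2 (chromosome 11, - strand, 69636856 to 69648235) span 77.6% and those of Nlgn3 (chromosome X, + strand, 98497127 to 98516463) 87.2%.

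The exon profile at birth was read against 5222 intron control probesets, whose median PLIER signal was 114 and whose 95th percentile was 713. PLIER signal is the probe brightness of a probeset as the authors estimated it, on a linear scale after quantile normalization. Of the 82 probesets, 70 (85.4%) had a mean signal above that percentile, beside 41.4% of all main probesets. After removal of variable probesets, described next, it was 70 of 81 beside 44.6%. A further 11 lay between the median and the percentile, and 1 lay below the median. Signals of different probesets were not set against each other, since probes differ in affinity.

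All 12 probesets of Nlgn3 were above the controls, with mean signals between 2070 and 9245. Of the 8 probesets of Nrxn2, 7 were above them, between 849 and 7258. The eighth (6532124 to 6532148), made of 1 probe, was rejected because its relative standard deviation reached 0.457, beyond the limit of 0.4, and its mean signal was 137, with 164 ± 65 in wildtype and 110 ± 50 in KIS-ko (SD, n = 6), lower in 5 of 6 litters and not tested. The same limit removed 7.2% of all main probesets. This left 81 probesets, and the table marks 73 of them as hybridizing to 1 place in the genome. Nlgn2 had 15 of 17 probesets above the controls, and the other two were the first and the second at its 5′ end, with mean signals of 411 and 174. Nrxn3 had 22 of 25 above them, and the 3 others were the second, the third and the fourth, with 477, 216 and 426. Nlgn1 had 14 of 20 above them. Those of Nlgn1 not above the controls were the first, the second and the third, with 435, 622 and 635, the eighth with 539, the fifteenth with 300 and the fourteenth (25599174 to 25599224), with 52.7 and marked as matching several places.

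**Figure D1:**
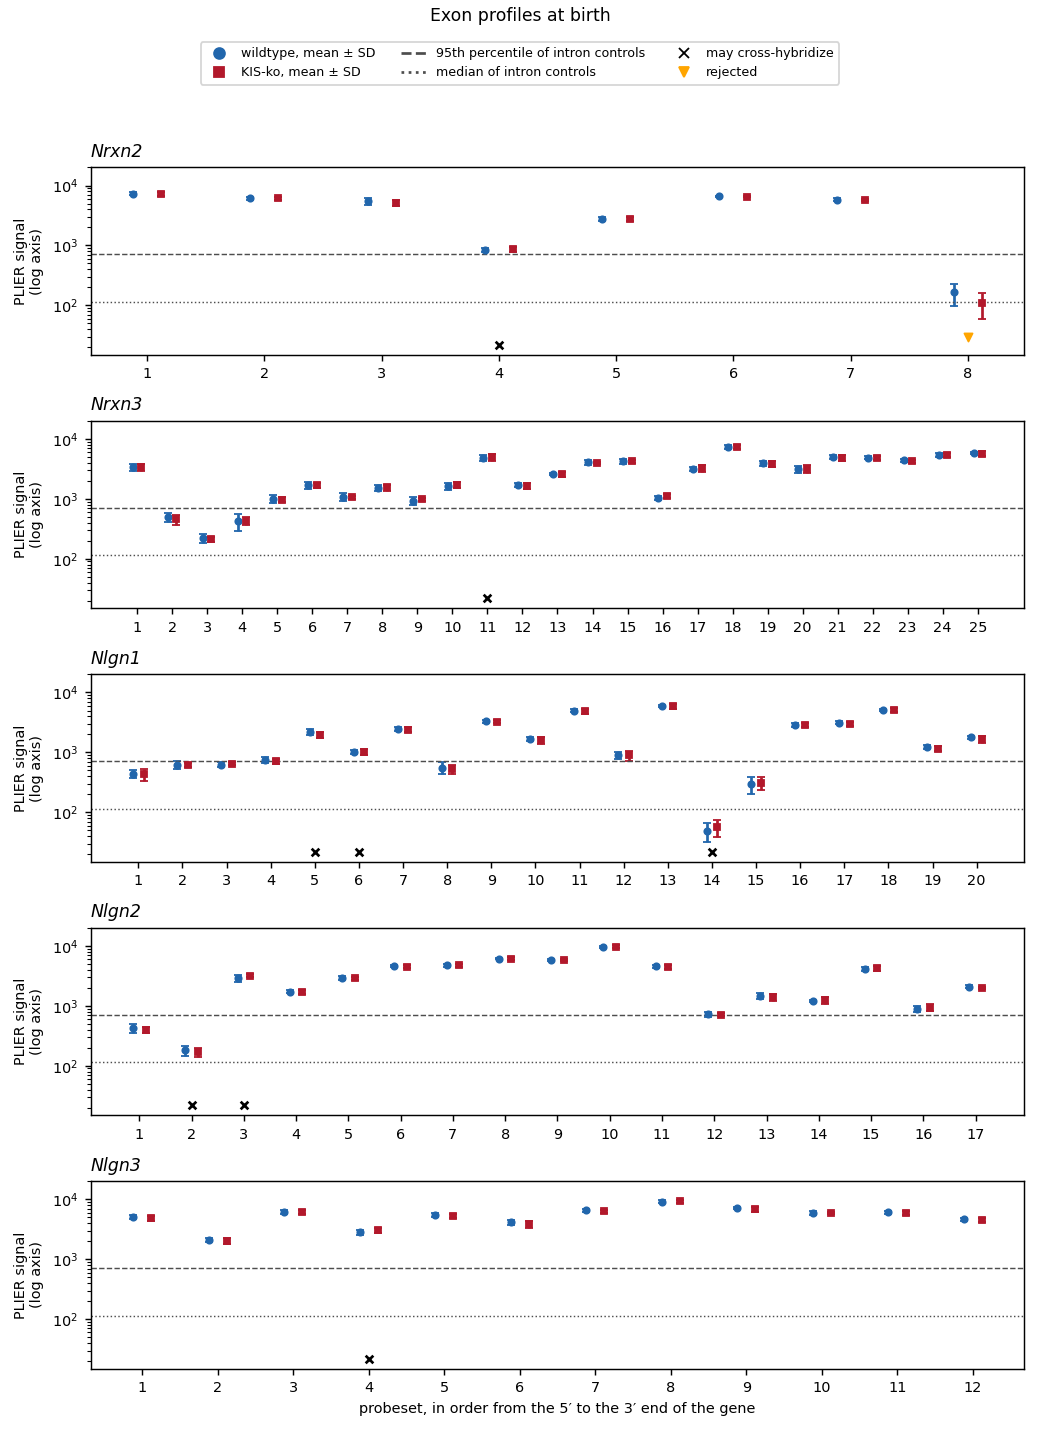
PLIER signal (log axis) of the 82 probesets in order from the 5′ to the 3′ end of each gene, as mean ± SD of 6 wildtype (blue circles) and 6 KIS-ko (red squares) brains, with the median (dotted) and the 95th percentile (dashed) of the intron controls. The genotypes lie close together along all 5 genes except at the rejected last probeset of Nrxn2, 70 probesets are above the dashed line, and the probesets under it stand near the 5′ ends of Nrxn3, Nlgn1 and Nlgn2, inside Nlgn1 and at the last position of Nrxn2.

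The labels were checked first. Uhmk1 fell in KIS-ko from a gene value of 10.97 ± 0.057 to 8.85 ± 0.15 (mean ± SD, n = 6 each), lower in 6 of 6 litters. The gene value is the mean over the kept probesets of a gene of log2(signal + 16), and differences are KIS-ko minus wildtype on that scale, which understates changes of dim probesets. Among marker lists, 4 of 4 measured neuron genes were above the controls, with list means of 12.85 to 12.97 in wildtype and 12.83 to 12.93 in KIS-ko, and 0 of 4 genes that mark other organs were. None of the 43 marker genes measured passed the test. All 6 markers of astrocytes and radial glia had a difference below 0, as did 5 of 6 of the oligodendrocyte lineage, 4 of 5 of endothelium, 4 of 5 of microglia and 69.8% of all genes. Below 0 were also 3 of 4 neuron markers, 2 of 5 of choroid plexus and 2 of 4 of meninges. It was 1 of 4 for erythroid cells, 1 of 4 for other organs, and 28 of 43 (65.1%) over all lists. The markers of astrocytes and radial glia had differences with a median of -0.088 and list means of 10.95 to 11.13 in wildtype and 10.85 to 11.04 in KIS-ko. Their lowest was Gfap, named after its value was seen and not above the controls, with -0.27 (unadjusted p of 0.0069 and adjusted p of 0.685 by limma). Their part in the differences given here was not tested. Array medians lay between 460 and 526 and were lower in KIS-ko in 5 of 6 litters (mean log2 difference -0.058 ± 0.093, SD), and the median difference of all genes was -0.036.

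Among neurexins, the gene value of Nrxn2 lay at 11.93, 12.02 and 12.10 in wildtype (lowest, median and highest of 6 brains) and at 11.91, 12.02 and 12.13 in KIS-ko. Both ranges overlapped over nearly their whole width. The difference was -0.0091 (SE 0.054, 95% interval -0.13 to 0.11), lower in 4 of 6 litters, with an adjusted p of 0.953 by limma. Litter 2 had the lowest difference, -0.18, and litter 4 the highest, 0.14.

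For Nrxn3 the values were 10.85, 11.13 and 11.23 in wildtype and 10.90, 11.12 and 11.20 in KIS-ko. The lowest brain of each genotype was the one of litter 5, and the other 10 brains lay at or above 11.04. The difference was -0.0068 (SE 0.048, 95% interval -0.11 to 0.10), lower in 3 of 6 litters, with an adjusted p of 0.961 by limma.

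Among neuroligins, Nlgn1 lay at 10.24, 10.32 and 10.36 in wildtype and at 10.17, 10.33 and 10.35 in KIS-ko. Its KIS-ko value was the lower one in 5 of 6 litters, but by little, with differences from -0.093 to 0.051. The mean difference was -0.025 (SE 0.045, 95% interval -0.12 to 0.074), with an adjusted p of 0.835 by limma. The SD of its litter differences, 0.051, was among the smallest, at the 2.27th percentile of 5992 genes above the controls, whose median SD was 0.12.

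Nlgn2 lay at 10.99, 11.07 and 11.14 in wildtype and at 11.01, 11.02 and 11.18 in KIS-ko. The ranges overlapped, with the highest brain in KIS-ko and the lowest in wildtype. The difference was -0.0082 (SE 0.050, 95% interval -0.12 to 0.10), lower in 3 of 6 litters, with an adjusted p of 0.954 by limma. Nlgn3 lay at 12.21, 12.33 and 12.41 in wildtype and at 12.16, 12.29 and 12.43 in KIS-ko. Its difference was -0.030 (SE 0.048, 95% interval -0.14 to 0.076), lower in 3 of 6 litters, with an adjusted p of 0.814 by limma.

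Thus 0 of the 5 genes passed an adjusted p of 0.05 (0.00579% of 17279 genes did) and 0 had an unadjusted p under 0.05 (6.16% of genes did, 4.34% lower and 1.82% higher). The only gene of all that passed was the targeted gene itself, Uhmk1 (adjusted p of 2.9e-07 by limma). In none of the 5 did the genotypes fail to overlap, as they did in 0.208% of all genes, and none was lower in 6 of 6 litters (1.6% of genes) or higher in 6 of 6 (0.92%). The direction of these small differences depended on the scaling. After each array was centred on its median all 5 were above 0 (0.027 to 0.050), and after quantile normalization of the deposited signals Nrxn2, Nrxn3, Nlgn1 and Nlgn2 were (0.011 to 0.024). In percent of the signal, the 95% intervals reached a fall of 8.55% for Nrxn2, 7.58% for Nrxn3, 8.29% for Nlgn1, 8.0% for Nlgn2 and 9.08% for Nlgn3. They reached a rise of 7.98%, 7.18%, 5.26%, 7.46% and 5.43% in the same order. The mean KIS-ko over wildtype ratio within pairs, averaged over probesets with less weight for variable ones, was 1.00 ± 0.058 for Nrxn2, 0.998 ± 0.046 for Nrxn3, 0.984 ± 0.021 for Nlgn1, 1.00 ± 0.054 for Nlgn2 and 0.984 ± 0.047 for Nlgn3 (SD over 6 pairs).

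**Figure D2:**
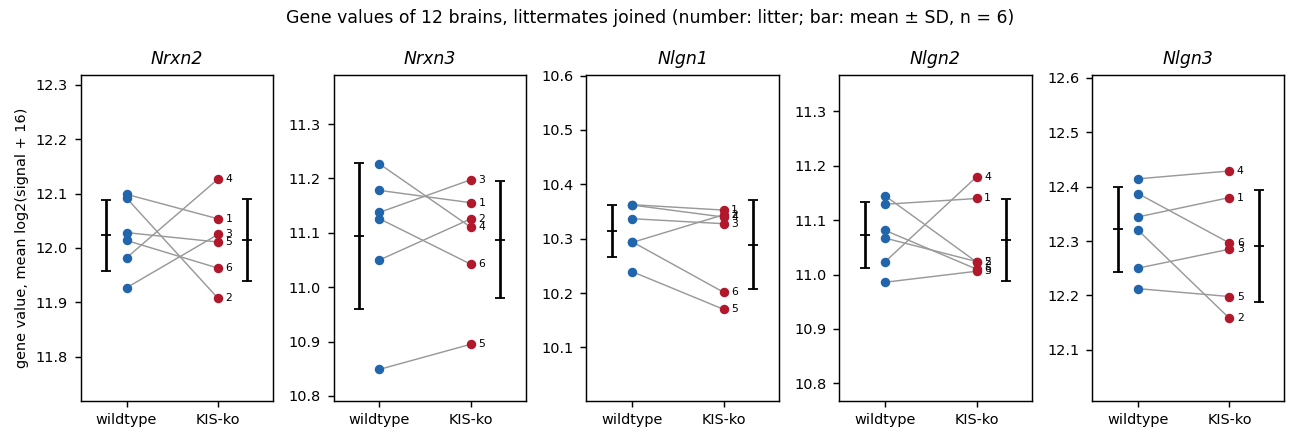
Gene value (mean log2(signal + 16) over kept probesets) of each gene in the 6 wildtype (blue) and 6 KIS-ko (red) brains, with lines joining littermates, litter numbers at the right and black bars for mean ± SD. Lines cross in every panel and the genotype ranges overlap, and both brains of litter 5 stand below the others in Nrxn3.

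The mean of both littermates covered a range over the 6 litters of 0.10 for Nrxn2, 0.30 for Nrxn3, 0.15 for Nlgn1, 0.14 for Nlgn2 and 0.22 for Nlgn3. For Nrxn3 it was 10.87 in litter 5 and between 11.08 and 11.17 in the other five. The step from litter 5 to the next litter was 0.21, beside genotype differences within single litters of -0.12 to 0.076. It ran along the whole gene, since 23 of 25 probesets had their lowest litter mean in litter 5. These probesets read 1 gene on the same arrays and are not independent, and 48.0% of 5992 genes above the controls also had their lowest litter mean in litter 5, whose arrays had medians of 473 and 460. After centring of the arrays on their median gene value, the lowest single brain for Nrxn3 was the wildtype of litter 5. Litter means after centring are not given here.

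Nlgn1 and Nlgn3 had their lowest litter mean in litter 5 as well (10.20 and 12.21). After the same centring their lowest single brains were the wildtype of litter 6 and the KIS-ko of litter 2. Nrxn2 and Nlgn2 had their lowest litter mean in litter 3, at 11.98 for Nrxn2. After centring the lowest single brain was the wildtype of litter 6 for Nrxn2 and the KIS-ko of litter 3 for Nlgn2. The SD between litter means was 0.11 for Nrxn3, 0.082 for Nlgn3, 0.062 for Nlgn1, 0.049 for Nlgn2 and 0.039 for Nrxn2, beside a median of 0.068 over the 5992 genes. 

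The litter differences between genotypes went in several directions. In litters 1 to 6, the KIS-ko brain was the lower one for 3, 3, 1, 2, 4 and 5 of the 5 genes. In litter 2, Nrxn2, Nlgn2 and Nlgn3 were lower in KIS-ko, with differences of -0.18, -0.12 and -0.16, while Nrxn3 and Nlgn1 were higher, with 0.076 and 0.051. In litter 4 the picture turned, with differences of 0.14 and 0.16 for Nrxn2 and Nlgn2 and of -0.12 for Nrxn3. The mean over the 5 genes was -0.0063, -0.068, 0.041, 0.035, -0.020 and -0.078 in litters 1 to 6, and the median over all genes in the same litters was -0.046, -0.086, 0.0023, 0.071, -0.052 and -0.11.

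Single probesets were tested next, since a changed promoter or cassette could leave the gene value in place. Of the 81 kept, 0 passed an adjusted p of 0.05 by limma, beside 0.00487% of the 205469 kept probesets, and the lowest adjusted p was 0.755. None had an unadjusted p under 0.05 either, whereas 4.72% of all kept probesets did with a lower and 1.91% with a higher value in KIS-ko (6.63% in all). In none did the genotypes fail to overlap (0.122% lower and 0.0506% higher of all), and none was lower in 6 of 6 litters (2.12% of all) or higher in 6 of 6 (0.905% of all). The difference was below 0 for 54 of 81 (66.7%), beside 66.2% of all. The median difference was -0.017 beside -0.040 over all kept probesets.

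The differences of all 81 probesets were smaller than 0.2 in size. For the 70 above the controls the 95% intervals lay within -0.34 and 0.32, and for all 81 within -0.44 and 0.66. The SD over litters was larger where the signal was low, with a median of 0.13 for the 70 and 0.31 for the 11 others.

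The first probeset of Nrxn2 (6517190 to 6517237) had 7280 ± 441 in wildtype and 7236 ± 444 in KIS-ko (PLIER signal, mean ± SD, n = 6), and the last kept one (6532000 to 6532053) 5837 ± 317 and 5745 ± 295. Over its 7 probesets the differences lay between -0.079 and 0.053. The first probeset of Nrxn3 (90033903 to 90034193) had 3375 ± 441 and 3393 ± 472, and the last (91570556 to 91570789) 5815 ± 251 and 5698 ± 506. These outermost probesets, which for Nrxn2 both lie in its 3′ part, gave nearly the same signal in both genotypes. Over the 25 probesets of Nrxn3 the differences lay between -0.13 and 0.11. The lower bound belongs to the second (90088728 to 90088752), made of 1 probe and not above the controls, and the upper to the sixteenth (90756350 to 90756376), both picked after their values were seen.

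The first probeset of Nlgn1 (26230654 to 26230796) had 435 ± 67 in wildtype and 435 ± 98 in KIS-ko, and the last (25330836 to 25332494) 1771 ± 84 and 1664 ± 205. Over its 20 probesets the differences lay between -0.17 and 0.16. The lowest unadjusted p of the 81, 0.0523 by limma, belonged to the fifth (26230341 to 26230368), with 2223 ± 261 and 1977 ± 231. That difference was -0.17 (SE 0.075, adjusted p of 0.755), lower in 5 of 6 litters. This probeset was also picked after its value was seen, and the table marks it as matching several places. Its neighbour on the 3′ side, picked for its place, the sixth (26230239 to 26230308), had 1027 ± 78 and 1027 ± 120. The neighbour on the 5′ side, the fourth, is not given here.

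The first probeset of Nlgn2 (69648204 to 69648235) had 427 ± 70 and 395 ± 48, and the last (69636856 to 69637956) 2096 ± 145 and 1991 ± 113. Its differences lay between -0.10 and 0.13, the latter at the third probeset (69647886 to 69647938), picked after its value was seen and again marked as matching several places. The first probeset of Nlgn3 (98497127 to 98497184) had 5065 ± 392 and 4834 ± 412, and the last (98515920 to 98516463) 4673 ± 244 and 4513 ± 317. Its differences lay between -0.11 at the sixth (98502414 to 98502465) and 0.10 at the fourth (98497335 to 98497363), which is also marked as matching several places, and both were picked after their values were seen. None of these passed the test.

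**Figure D3:**
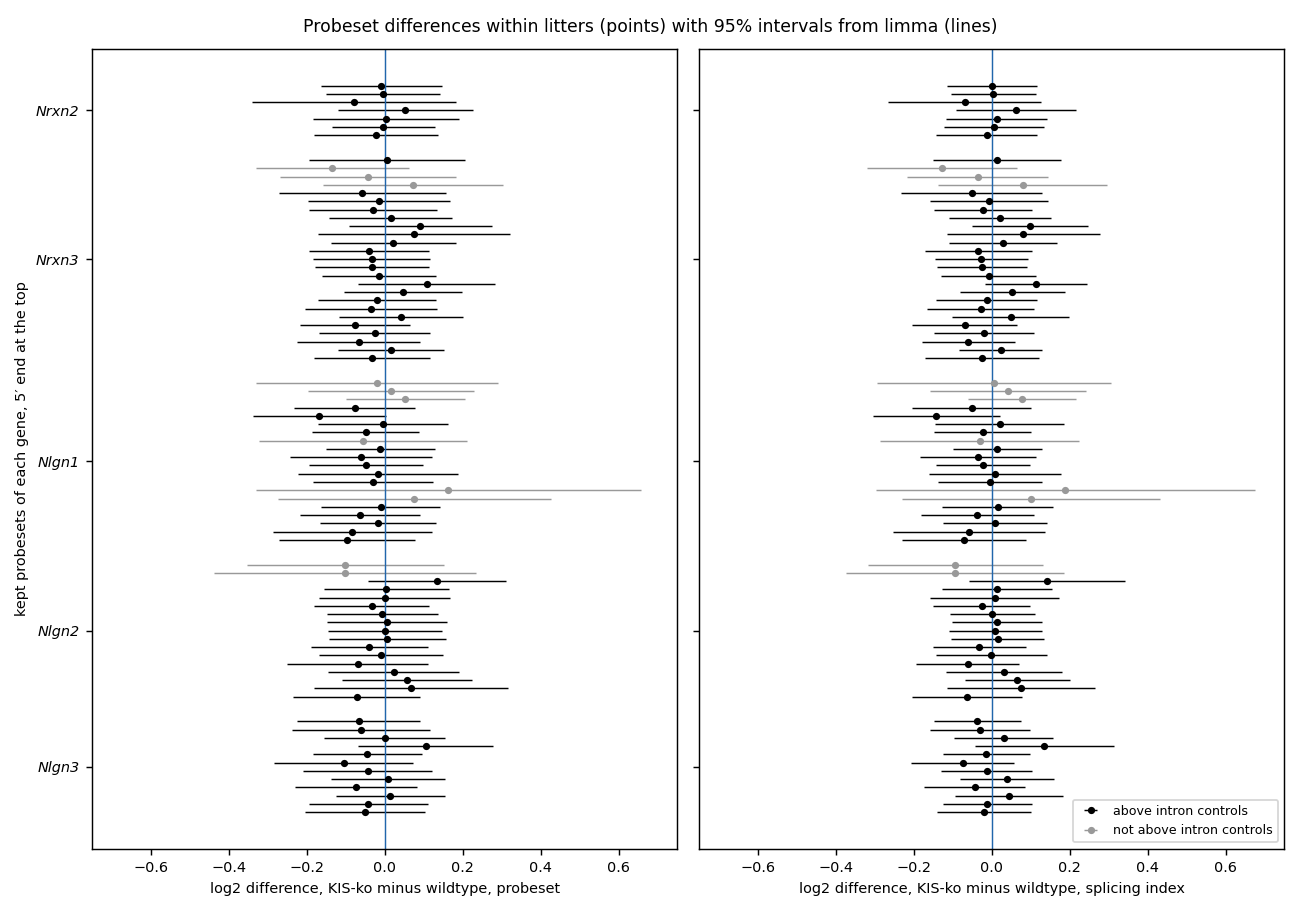
Log2 difference KIS-ko minus wildtype of the 81 kept probesets (left) and of their splicing index (right), 5′ end at the top within each gene, with 95% intervals from limma; grey marks probesets not above the intron controls. Every interval includes 0, and the widest belong to grey probesets of Nlgn1 and Nlgn2.

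The splicing index is the log2 signal of a probeset minus the mean over its gene on the same array, so that it shows changes of single exons relative to the gene. Of the 81 indexes, 0 passed an adjusted p of 0.05 (0.000985% of 202944 did) and 0 had an unadjusted p under 0.05 (6.11% of all did, 3.15% lower and 2.96% higher), and the lowest adjusted p by limma was 0.834. The index was below 0 for 42 of the 81 (51.9%), beside 48.6% of all. Indexes lay between -0.070 and 0.062 in Nrxn2, -0.13 and 0.11 in Nrxn3, -0.14 and 0.19 in Nlgn1, -0.094 and 0.14 in Nlgn2, and -0.075 and 0.13 in Nlgn3. For the probesets above the controls, the 95% intervals lay within -0.31 and 0.34. Per gene, the Simes test called 0 of the 5, beside 0.0128% of 15572 genes with at least 3 probesets, and each adjusted p was 1.00. Before adjustment 0 of the 5 and 7.29% of genes had a Simes p under 0.05. With diffSplice of limma, which shares 1 variance over a gene, 0 of the 5 were called by its Simes test (1.86% of genes were) and 0 by its F test (0.392% were). Probesets were not assigned to named splice sites or cassettes here.

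The ends of the measured stretch of each gene, which for Nrxn2 is only its 3′ part, were compared by the litter difference of the kept probesets nearest the 5′ end minus that of those nearest the 3′ end, with 2 probesets at each end for Nrxn2, 8 for Nrxn3, 6 for Nlgn1, 5 for Nlgn2 and 4 for Nlgn3. It was 0.0064 ± 0.076 for Nrxn2, 0.0019 ± 0.14 for Nrxn3, -0.0012 ± 0.10 for Nlgn1, -0.014 ± 0.070 for Nlgn2 and 0.033 ± 0.097 for Nlgn3 (mean ± SD over 6 litters). The signs were mixed over litters in every gene. The exact two-sided sign-flip permutation test gave p of 0.875, 1.00, 0.969, 0.594 and 0.438, all 1.00 after adjustment over the 5 genes, and cannot go below 0.031 with 6 pairs. All 6 litters went one way in 3.28% of 15572 genes and in none of the 5.

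**Figure D4:**
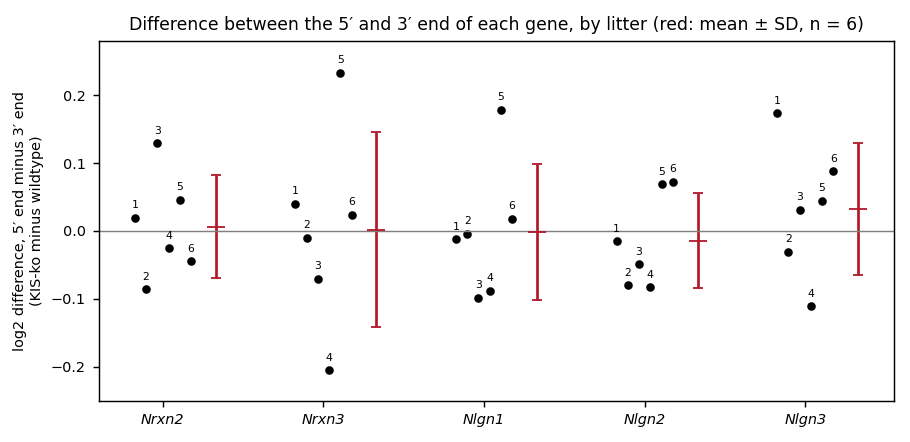
For each gene and litter (numbered points), the log2 difference KIS-ko minus wildtype at the 5′ end minus that at the 3′ end of its probesets (for Nrxn2 within the 3′ part of the gene), with the mean ± SD over 6 litters in red. Points fall on both sides of 0 in every gene, and the widest spread is that of Nrxn3, from -0.20 in litter 4 to 0.23 in litter 5.

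In Nrxn3 the longest interval between neighbouring probesets, 443373 bases, begins 737528 bases and ends 1180902 bases after the first probeset. Measured from the 3′ end of the gene, the third listed start lies within it (522452 bases before the end of the RefSeq gene, beside 799358 and 355984 bases from the bounds of the interval to the end of the last probeset). The 17 probesets upstream of the interval, 14 of them above the controls, had a difference of 0.0018 ± 0.10 (mean ± SD over 6 litters), lower in 3 of 6. The 8 downstream, all above the controls, had -0.025 ± 0.072, lower in 4 of 6. Upstream minus downstream was 0.027 ± 0.11, above 0 in 4 of 6 litters, with p = 0.594 by the exact sign-flip permutation test. This split was chosen after the positions were seen. Without litter 5 the value was -0.0069.

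The partners of the 5 proteins were followed in a list of 54 genes by role, of which 49 were measured. Of these, 0 passed an adjusted p of 0.05 by limma, beside 0.00579% of all genes, which is Uhmk1 alone. The difference was below 0 for 40 (81.6%), beside 69.8% of all genes, and the median was -0.029 beside -0.036. That direction again turned with the scaling, since the median of the list was 0.028 after centring of the arrays and the median of all genes 0.019.

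Among the 20 extracellular partners of neurexins, 18 were below 0 with a median of -0.045. Lrrtm1 and Lrrtm2, postsynaptic adhesion proteins that bind neurexins, differed by -0.060 (SE 0.058) and 0.0016 (SE 0.043). Of the 8 measured partners inside the axon terminal, 6 were below 0 with a median of -0.049. Cask and Apba1, scaffolds that bind the tail of neurexins, differed by -0.024 (SE 0.048) and -0.075 (SE 0.053). Of the 13 measured postsynaptic scaffolds, 11 were below 0 with a median of -0.027. Dlg1 and Dlg2, PDZ scaffolds of the postsynaptic density, differed by -0.050 (SE 0.067) and -0.050 (SE 0.053).

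Mdga2, which binds neuroligins and blocks neurexin, differed by -0.082 (SE 0.051). The 3 STAR proteins, RNA-binding proteins that act on the alternative segment 4 of neurexins, had a median of -0.0086, with -0.025 (SE 0.047) for Khdrbs1 and 0.024 (SE 0.056) for Khdrbs2. Among 4 proteases that shed these proteins the median was -0.025. Mmp9 was the only one of the 49 with an unadjusted p under 0.05 (0.025 by limma), as 6.16% of all genes had, with a difference of 0.13 (SE 0.051, adjusted p of 0.685), higher in 6 of 6 litters. Its mean was not above the intron controls. The protease subunit Psen2, picked after its value was seen like the next gene, was lower in 6 of 6, with -0.097 (SE 0.046, unadjusted p of 0.061 by limma). Nxph2, a secreted ligand of neurexins, had the lowest value of the list, -0.18 (SE 0.084, unadjusted p of 0.057 by limma), lower in 6 of 6 litters. The means of both were not above the controls either. Of all genes, 1.6% were lower and 0.92% higher in 6 of 6 litters.

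**Figure D5:**
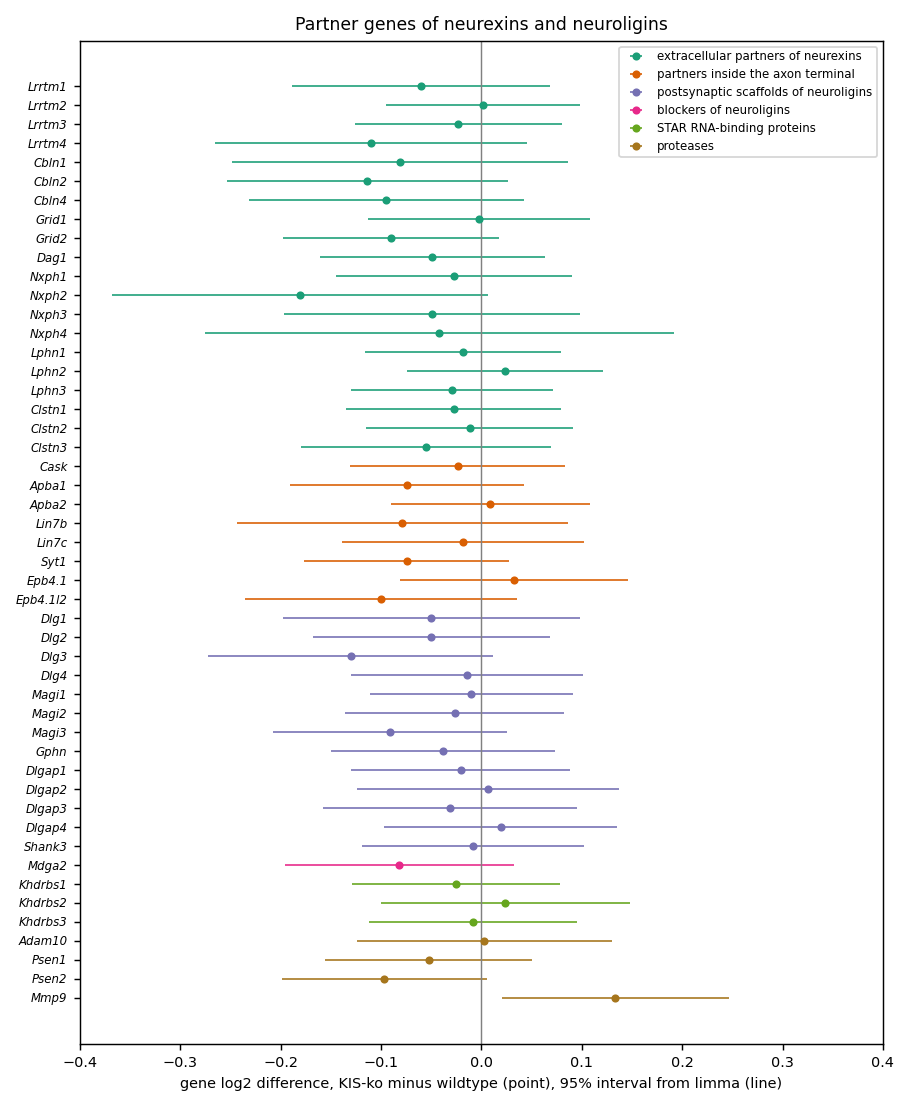
Log2 difference KIS-ko minus wildtype of the gene value (points) with 95% intervals from limma (lines) for the 49 measured partner genes, coloured by role. 40 points lie below 0, and all intervals include 0 except that of Mmp9, which was not above the intron controls.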

How the data were processed

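The arrays were read by the authors with the Affymetrix Expression Console. The deposited intensity of each probeset is a PLIER signal on the linear scale after quantile normalization by the authors, with no logarithm taken. Main probesets with a symbol were used. Following the methods, 15948 of them (7.20%) whose relative standard deviation passed 0.4 for wildtype or KIS-ko arrays were dropped, leaving 205469 of 17279 genes. Tests were run with limma 3.58.1 in R 4.3.3 on log2(signal + 16), with a block term for litters. They covered all genes or probesets, with Benjamini-Hochberg adjustment at 0.05. The tests were also run on simulated data, but the outcome is not given here. That run is therefore no evidence that changes as small as the differences reported above would be found. The 5′ minus 3′ and the Nrxn3 upstream minus downstream litter differences were tested by exact sign-flip permutation (Python 3.11.15, pandas 2.3.3, numpy 2.4.6). Plots were drawn with matplotlib 3.10.9. A splicing index needed at least 3 kept probesets. The number of arrays and the signal over background limit the precision.

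The pairing comes from the litter label. Deviations from the genotype mean correlated between littermates at -0.11 to 0.47, over 0.1 in 3 of 6 litters, beside a mean of -0.019 between litters. Array correlations lay between 0.977 and 0.990.

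The rule for named items was: the 5 genes, Uhmk1, per gene the first and last kept probeset and those with an unadjusted p under 0.05, per role of the partner list those with an unadjusted p under 0.05 or the first names listed, and per gene the 3 genes with the highest Pearson r. Items outside it (Gfap, Psen2, Nxph2 and some probesets) are marked as chosen after their values were seen, except the sixth probeset of Nlgn1, marked as picked for its place. The members and lists were chosen with earlier results of these data known. Partner genes not matched by symbol were not analysed here. Alternatives covered the block, the constant added before the logarithm, the filters, the scaling, cross-hybridizing and dim probesets, the summary over probesets, variance moderation and each litter left out.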

Additional observations from a re-analysis of the deposited data

How the results depend on the processing

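Under every alternative run, 0 of the 81 probesets, 0 of their splicing indexes, 0 of the 5 genes by Simes and 0 of the partner genes passed the adjusted p of 0.05, and the adjusted p of the 5 gene differences stayed between 0.562 and 1.00. Without the replicate block (the paired term for litter) the gene differences were equal (-0.0091 for Nrxn2, -0.0068 for Nrxn3, -0.025 for Nlgn1, -0.0082 for Nlgn2 and -0.030 for Nlgn3), with an adjusted p of 0.957 to 0.977 by limma for Nrxn2, Nrxn3 and Nlgn2 and of 0.868 to 0.869 for Nlgn1 and Nlgn3, and no call changed. The direction of the gene differences was not stable. With arrays centred on their medians they were 0.048 (Nrxn2), 0.050 (Nrxn3), 0.030 (Nlgn1), 0.049 (Nlgn2) and 0.027 (Nlgn3), with quantile normalization repeated 0.019 (Nrxn2), 0.024 (Nrxn3), 0.011 (Nlgn1) and 0.024 (Nlgn2), and with the median over probesets 0.016 (Nrxn3) and 0.050 (Nlgn2). The difference moved further down for Nrxn2 without the filter, which brings back its rejected probeset (-0.075), and for Nlgn1 with the median over probesets (-0.089). Leaving out 1 litter gave -0.040 to 0.026 for Nrxn2, with 0.026 without litter 2. It gave -0.023 to 0.015 for Nrxn3, with 0.015 and 0.0086 without litters 4 and 6. It gave -0.041 to 0.014 for Nlgn2, with 0.014 and 0.0044 without litters 2 and 6. It kept Nlgn1 (-0.041 to -0.012) and Nlgn3 (-0.044 to -0.0041) below 0. With centring all 5 ratios of the methods were above 1 (1.04 for Nrxn2, 1.03 for Nrxn3, 1.02 for Nlgn1, 1.04 for Nlgn2 and 1.01 for Nlgn3).

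The 5′ minus 3′ difference turned for Nrxn2 with 3 of its 7 probesets at each end (-0.023), for Nrxn3 with fewer probesets at each end (-0.0042), for Nlgn1 with fewer (0.015), repeated quantile normalization (0.014) and probesets matching 1 place (0.038), and for Nlgn3 with fewer and with probesets matching 1 place (-0.016 each). Without 1 litter it lay between -0.018 and 0.025 for Nrxn2, between -0.044 and 0.043 for Nrxn3, between -0.037 and 0.018 for Nlgn1, between -0.032 (without litter 6) and -0.00061 (without litter 4) for Nlgn2, and between 0.0044 and 0.061 for Nlgn3. For Nlgn2 with fewer probesets at each end it was -0.035 and below 0 in 6 of 6 litters, where the exact permutation p is 0.031, the smallest that 6 pairs allow, and 0.156 after adjustment over the 5 genes. The upstream minus downstream difference of Nrxn3 lay between -0.0069, without litter 5, and 0.059. Of all genes, 1 was called in the main setting (the targeted gene Uhmk1), and 2 with a constant of 64, 2 without the filter, 5 with the filter at 0.2, 2 with trend and robust moderation, and 1 to 2 without 1 litter (2 without litter 3). Unadjusted p under 0.05 was met by up to 2 of the member probesets (without litter 4, and with trend and robust moderation) and up to 5 splicing indexes (without litter 4). At the 90th percentile of the controls 74 probesets were above them, beside 70 at the 95th. The cause of these shifts was not tested.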

Other observations

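Across the 12 brains, with arrays centred on their median gene value and each genotype on its own mean, Nrxn2 and Nlgn2 varied together (Pearson r = 0.782), as did Nrxn3 and Nlgn1 (r = 0.714). Nrxn3 ran against Nrxn2 (r = -0.514) and Nlgn2 (r = -0.538), and the other pairs lay between -0.12 and 0.32. The median r with the 5703 genes compared was 0.21 for Nrxn2, -0.081 for Nrxn3, 0.090 for Nlgn1, 0.15 for Nlgn2 and 0.021 for Nlgn3. Among 5703 genes above the controls and with at least 4 kept probesets, the 3 most like Nrxn3 were Atp8a2, Gria1 and Vcan (r of 0.953, 0.924 and 0.920). Those most like Nrxn2 were Fam181b, Dgcr2 and Scamp5 (0.941, 0.941 and 0.931), and those most like Nlgn2 were Alg2, Kctd13 and Ankrd13b (0.931, 0.908 and 0.906). Those most like Nlgn1 were Rbm9, Clcc1 and Atp9a (0.887, 0.875 and 0.857), and those most like Nlgn3 were Klhl18, Igdcc4 and 9430031J16Rik (0.920, 0.878 and 0.871). These are descriptions over arrays that share litters and scaling. The low Nrxn3 value of litter 5 enters its correlations.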
